A study of Capra hircus with 8 samples.

Results

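MiR-532 was measured as its 5p arm, miR-532-5p, and its 3p arm, miR-532-3p, in small RNA libraries of goat mammary gland cells. The deposited table names them chi-miR-532-5p and chi-miR-532-3p, and the goat prefix chi- is left out below. They are 2 of the 361 goat miRNA names of that table. Each arm has a mature entry, for reads assigned to the mature miRNA, and a hairpin entry, for reads assigned to its precursor under the same name, so that 4 of the 664 entries of known miRNAs were followed. All 4 passed the filter on low counts. The arms were picked because miR-532-3p stood high with knockdown against 3NC in earlier results of the same libraries, so every value from that comparison is a description without a test.

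A miRNA hairpin is cut into a short duplex, and usually one strand is loaded into an Argonaute protein as the guide while the other, the passenger, is degraded. The arms have different seeds, the bases near the 5' end that select target mRNAs, so a change of arm changes the set of possible targets. In human and mouse the miR-532 hairpin belongs to an X-linked cluster with miR-188, miR-362, miR-500, miR-501, miR-502 and miR-660 in an intron of CLCN5, a chloride/proton exchanger gene, and there the 5p arm is the usual guide.

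The cells came from the mammary gland of Lanshan dairy goats and were grown in 3D culture. There were 8 libraries in 4 groups of 2. The overexpression group received a virus carrying the circular RNA circRNA28250, and in the knockdown group, labelled cKDmix, that RNA was inhibited. The controls are labelled 3NC and 5NC. Overexpression was set against 5NC and knockdown against 3NC from the order in which the series text lists them, since no label states which control belongs to which. The labels do not say what the control agents were, nor whether a group's libraries stem from separate cultures, and every p-value below is therefore a measure of library spread alone, possibly of technical origin. The circular RNA itself is not measured by these counts, so the overexpression and knockdown labels were not checked.

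Libraries held 6588354 to 32066029 reads, of which 0.382% to 39.5% fell on miRNA entries. The knockdown libraries had the fewest miRNA reads, 177449 and 122435, with ribosomal RNA at 27.3% of the first and predicted piRNAs at 43.9% of the second. The second overexpression library had 399780 miRNA reads, and the other 5 libraries at least 1734531. The first 5NC library stood apart, with Spearman correlations of 0.50 to 0.63 with each of the other 7 across 604 miRNA entries. Of 9 epithelial marker miRNAs 8 were found as mature entries, and their sum ran from 66.9 CPM in the second 3NC library to 10639 CPM in the first 5NC library. MiR-205, an epithelial marker, was not found, and miR-200a, miR-200b, miR-141, miR-429 and miR-96 had 0 reads in at least 1 library. Mesenchymal markers, of which 4 of 5 were found, summed to 274 to 25910 CPM, above the epithelial sum in each library except the first 5NC library. In bulk samples, fewer cells of a type and less RNA per cell cannot be told apart.

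The 5p arm was the main product of the hairpin in all 6 control and overexpression libraries, and the 3p arm was the main product in both knockdown libraries. Mature miR-532-5p had 3541 and 5112 reads in 3NC, 6833 and 2476 in 5NC, 12528 and 577 with overexpression, and 268 and 65 with knockdown. Mature miR-532-3p had 130 and 52 reads in 3NC, 824 and 287 in 5NC, 179 and 81 with overexpression, and 2082 and 105 with knockdown. In each of the 6 libraries outside the knockdown group the 5p arm thus outnumbered the 3p arm, by 7.12-fold at the least and 98.3-fold at the most. In the first knockdown library the 3p arm outnumbered the 5p arm 7.77-fold, and in the second 1.62-fold.

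The share of the 3p arm in the mature reads of both arms does not depend on how a library is scaled. It was 3.54% (exact Clopper-Pearson 95% interval 2.97% to 4.19%) and 1.01% (0.753% to 1.32%) in 3NC, and 10.8% (10.1% to 11.5%) and 10.4% (9.27% to 11.6%) in 5NC. With overexpression it was 1.41% (1.21% to 1.63%) in the first library and 12.3% (9.90% to 15.1%) in the second. With knockdown it was 88.6% (87.2% to 89.9%) and 61.8% (54.0% to 69.1%). The intervals hold counting error and nothing more, since PCR copies were not told apart by molecular identifiers. Both knockdown libraries had a higher share than each of the other 6. They also lay outside each other's intervals, and the second rests on 170 reads of both arms.

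**Figure D1:**
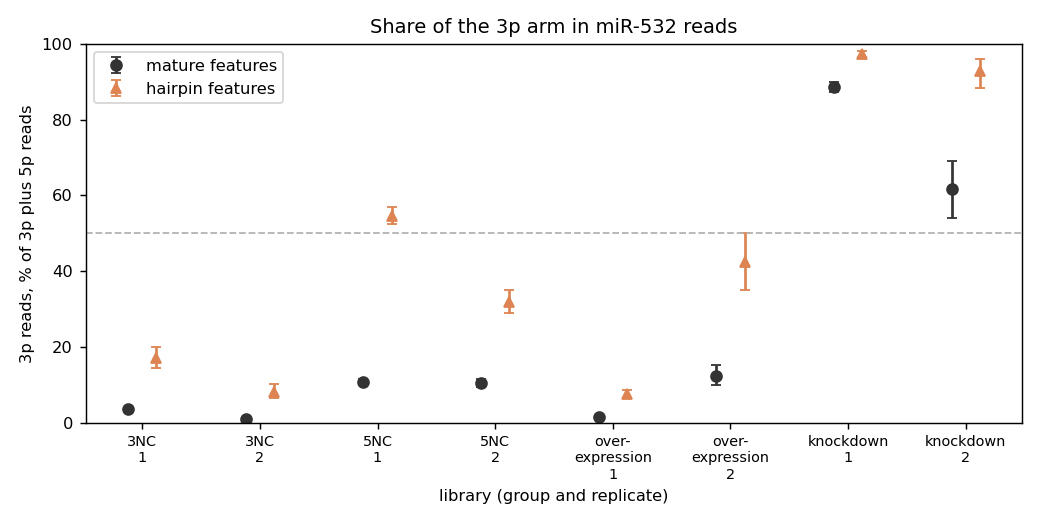
Share of 3p reads among 3p plus 5p reads of miR-532 (y axis, %) in each of the 8 libraries (x axis), for mature entries (circles) and hairpin entries (triangles), with exact 95% binomial intervals as bars and a dashed line at 50%. The mature share is 88.6% and 61.8% in the knockdown libraries and at most 12.3% in the others.

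On the log2 scale, the 3p:5p ratio of mature reads averaged −5.69 ± 1.31 (SD, n = 2) in 3NC, −4.48 ± 2.33 with overexpression, −3.08 ± 0.04 in 5NC and 1.82 ± 1.60 with knockdown. The place of the overexpression group among the first 3 is not set beyond its spread. Its libraries, at −6.13 and −2.83, reach into or beyond the values of 3NC (−4.77 and −6.62) and 5NC (−3.05 and −3.11). Both 5NC libraries lay above both 3NC libraries, so the size of a knockdown difference depends on which control is used. The knockdown libraries, at 2.96 and 0.69, were the only ones above 0. The fitted difference between knockdown and 3NC was 7.52 ± 2.37 (SE), given as a description. It ran from 6.38 without the first knockdown library to 8.65 without the second.

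The hairpin entries gave higher 3p shares, again highest with knockdown. Hairpin reads of the 3p arm made up 17.0% and 8.18% in 3NC, 54.7% and 31.9% in 5NC, 7.50% and 42.5% with overexpression, and 97.5% and 92.8% with knockdown. Here the first 5NC library, with 1116 3p and 926 5p reads, also had more 3p than 5p reads. Over all 8 libraries there were 4.03 to 7.38 mature reads per hairpin read for the 5p arm and 0.580 to 1.10 for the 3p arm, ranges that do not meet. The knockdown libraries, at 5.47 and 4.64, sat inside the range of the other libraries for the 5p arm, and at 1.10 and 0.580 they were the highest and the lowest for the 3p arm. The 5p hairpin entry had fewer reads than the mature entry in every library, so it does not include all mature reads. Hairpin and mature entries come from the same libraries and are not independent.

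Levels of each arm, unlike their ratio, depend on what a library is scaled to. In CPM, which is reads per 1000000 miRNA reads after TMM scaling, a method that sets a common centre for the libraries, mature miR-532-5p stood at 2662 and 2948 in 3NC, 1952 and 1093 in 5NC, 4601 and 1156 with overexpression, and 733 and 202 with knockdown. Both knockdown libraries were lower than the other 6. Mature miR-532-3p stood at 97.7 and 30.0 CPM in 3NC, 235.4 and 126.7 in 5NC, 65.7 and 162.3 with overexpression, and 5698 and 326.5 with knockdown. Both knockdown libraries were higher than the other 6, although they differed from each other more than the second did from the first 5NC library. Among the 317 mature entries the 5p arm ranked between 25 and 41 in the 6 libraries outside knockdown, and 47 and 70 with knockdown, where 1 is the most abundant. The 3p arm ranked between 62 and 118 outside knockdown, and 13 and 59 with knockdown.

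**Figure D2:**
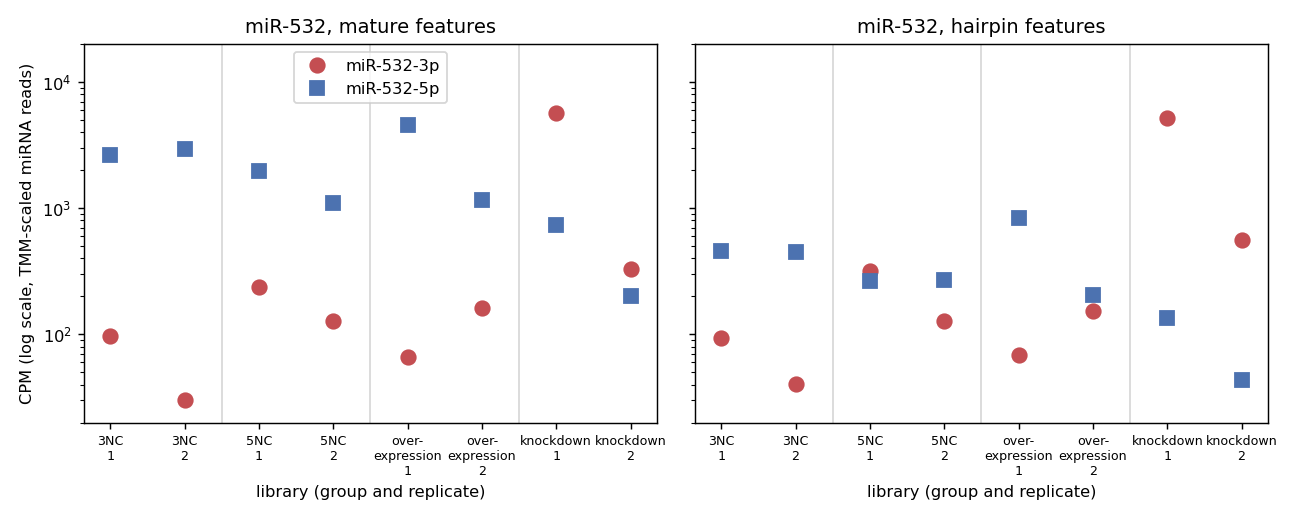
Level of miR-532-3p (red circles) and miR-532-5p (blue squares) in CPM on a log axis, 1 point per library, for mature entries (left) and hairpin entries (right). In the left panel the red point lies above the blue one in the knockdown libraries alone, at 5698 against 733 CPM and 326.5 against 202 CPM.

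The 5p arm was lower with knockdown than in 3NC, without overlap, on each of the 4 scales used, while the 3p arm was higher without overlap on 2 of them. Of the 4 scales, plain miRNA totals, without TMM, gave the smallest difference by the means for mature miR-532-5p, 1.95-fold. Reads of the whole table gave the largest, 19.4-fold. Per 1000000 miRNA reads without TMM it had 2041 and 1930 in 3NC against 1510 and 531 with knockdown. The first knockdown library then lay above both 5NC libraries, at 1356 and 838.7. Per 1000000 reads of the whole table, the scale of the TPM values the authors deposited, it had 438.0 and 390.8 in 3NC. With knockdown it had 40.7 and 2.03 there. Mature miR-532-3p per 1000000 reads of the whole table had 16.1 and 3.98 in 3NC against 316.0 and 3.27 with knockdown. The second knockdown library was then the lowest of all 8 libraries for the 3p arm, and the groups overlapped. The mean of the 3p arm with knockdown was 47.2 times that of 3NC in CPM and 15.9 times per 1000000 reads of all kinds, where the second knockdown library lay below both 3NC libraries. It was 133 times on plain miRNA totals, the largest of the 4 scales, and 18.3 times on all named small RNA reads. Scaled to all named small RNA reads the 3p groups overlapped too, and scaled to plain miRNA totals they did not.

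**Figure D3:**
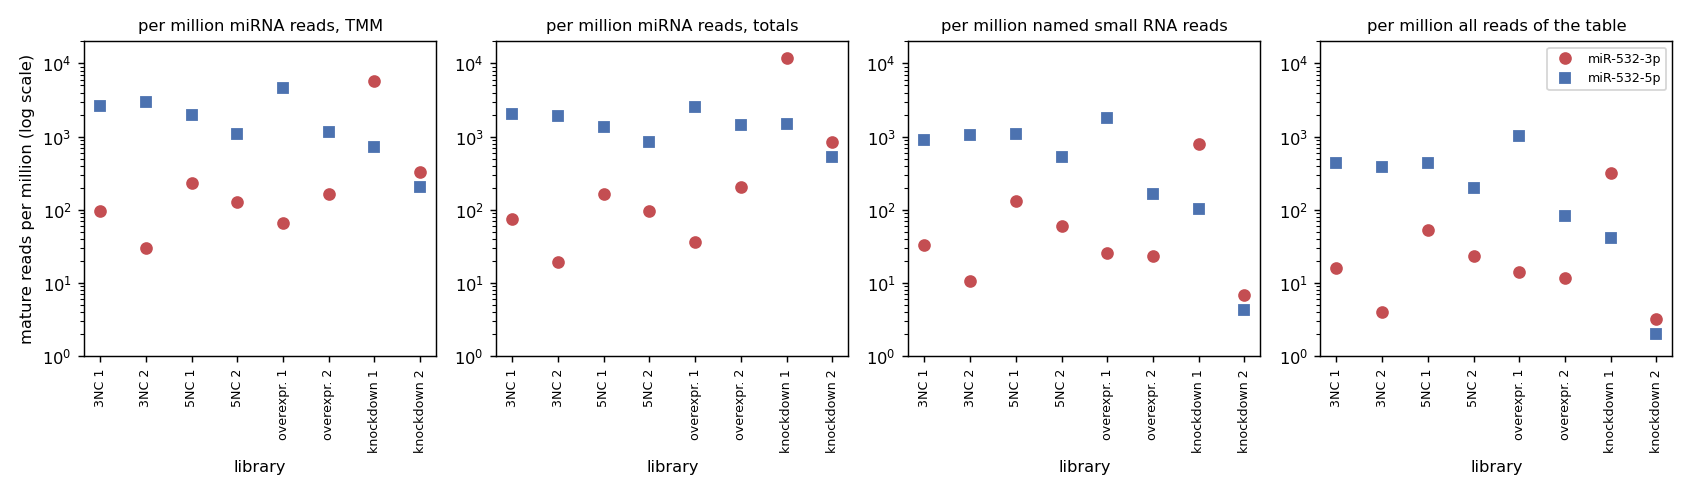
Mature reads of miR-532-3p (red circles) and miR-532-5p (blue squares) per 1000000 reads on a log axis in each library, scaled to miRNA reads with TMM, to miRNA reads without it, to all named small RNA reads and to all reads of the table (left to right). The distance between the points of a library is the same in all 4 panels, while the second knockdown library moves from 326.5 to 3.27 for the 3p arm.

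The fitted log2 fold change between knockdown and 3NC, again a description, was 5.56 ± 1.68 (SE, n = 2 per group) for mature miR-532-3p and 5.42 ± 1.53 for its hairpin entry. For the 5p arm it was −2.58 ± 1.13 for the mature and −2.36 ± 1.23 for the hairpin entry. The median of all 604 entries was −0.08. Without the first knockdown library the value of mature miR-532-3p was 2.92 and that of its hairpin entry 3.63, so the size of the difference rests on that library. In this comparison 0 of 604 entries passed the edgeR test at an adjusted p under 0.05 (0%), 67 had an unadjusted p under 0.05 (11.1%) and DESeq2 called 28 (4.64%). The groups did not overlap in CPM for 54.3% of entries, and all 4 miR-532 entries were among these. By log2 fold change mature miR-532-3p was at position 4 of 224 mature entries, between miR-582-5p (7.02) and miR-200b (5.28). MiR-582-5p had 0 reads in both 3NC libraries, so that its fitted size is no measure. MiR-200b stood at 0.752 and 1.15 CPM there, under the 2.255 and 1.73 CPM of 3 reads, so its size carries little weight. Mature miR-532-5p was at position 189.

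Overexpression against 5NC shares no library with the comparison the arms were chosen on, and there no miR-532 entry passed the test. The fit drew its spread and TMM factors from all 8 libraries, so those of 3NC and knockdown enter the SE and p-values. Mature miR-532-5p averaged 2879 ± 2436 CPM (SD, n = 2) with overexpression and 1522 ± 608 CPM in 5NC. The log2 fold change was 0.92 ± 1.07 (SE, edgeR adjusted p = 0.80). The overexpression libraries, at 4601 and 1156 CPM, overlapped those of 5NC, at 1952 and 1093, and without the first of them the sign turned, to −0.40. Mature miR-532-3p averaged 114.0 ± 68.2 CPM with overexpression and 181.0 ± 76.9 CPM in 5NC, a log2 fold change of −0.67 ± 1.39 (edgeR adjusted p = 0.91), with overlapping libraries. The sign held but the size did not: it was −0.16 without the first overexpression or the first 5NC library, −1.05 without the second 5NC library, −1.59 without the second overexpression library, −0.14 on plain miRNA totals and −1.97 on named small RNA totals. The hairpin entries had log2 fold changes of 0.97 ± 1.17 for the 5p arm, which was −0.38 without the first overexpression library, and −1.02 ± 1.28 for the 3p arm (edgeR adjusted p = 0.80 for both). The latter was −0.21 without the first and −1.53 without the second 5NC library, −0.55 without the first and −1.81 without the second overexpression library, and −0.49 and −2.30 on plain miRNA and named small RNA totals. With only the overexpression and 5NC libraries fitted, mature miR-532-5p was at 0.88 and mature miR-532-3p at −0.54 (edgeR adjusted p = 0.996 for both). Of all 604 entries, 0 passed the edgeR test (0%), 49 had an unadjusted p under 0.05 (8.11%) and DESeq2 called 36 (5.96%), and neither of these lists held a miR-532 entry. DESeq2 gave no adjusted p for 141 of the 604, which count here as not called. All 4 miR-532 entries overlapped between the groups in CPM, while 33.3% of all entries did not. Other scales parted them: per 1000000 reads of the table mature miR-532-3p had 14.4 and 11.8 with overexpression, below 52.4 and 23.1 in 5NC, and per 1000000 miRNA reads without TMM mature miR-532-5p had 2545 and 1443, above 1356 and 838.7.

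The arm ratio itself was tested across every miRNA with a mature 3p and a mature 5p entry, 91 in all, of which 89 had at least 10 reads of both arms together in at least 2 libraries. For miR-532 the log2 ratio differed by −1.40 ± 2.23 (SE, n = 2 per group) between overexpression and 5NC, with an edgeR adjusted p of 1. An exact two-sided permutation test of the log2 ratios gave p = 1, where 2 against 2 libraries cannot go below 0.333. The difference came from the first overexpression library, and without it the value was 0.25. Of the 89 ratios 0 passed the edgeR test in this comparison (0%), 3 had an unadjusted p under 0.05 (3.37%), and limma on the log2 ratios called 0. The groups did not overlap for 30.3% of ratios, and that of miR-532 overlapped. The 3 pairs with the lowest p on the higher side were miR-330, miR-424 and miR-338, and on the lower side miR-345, miR-99b and let-7g, each with an arm at 0 reads in at least 1 of these 4 libraries.

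Few miRNAs had another dominant arm with knockdown than in 3NC. Of 59 miRNAs with at least 10 reads of both arms together in all 3NC and knockdown libraries, 2 (3.39%) had less than 50% 3p reads in both 3NC libraries and more in both knockdown libraries, and 0 went the other way. These were miR-532 and miR-129, a miRNA known from neural tissue. Mature miR-129-3p had 38 and 40 reads in 3NC against 170 and 226 with knockdown, while miR-129-5p had 701 and 870 against 63 and 60, so its 3p share moved from 5.14% and 4.40% to 73.0% and 79.0%. In the other 4 libraries miR-129 had 3p shares of 1.85% to 9.22%. Between 5NC and overexpression 0 of 57 such miRNAs changed their dominant arm. Each library had 64 to 84 miRNAs with at least 10 reads of both arms together. Of these, 29.7% to 34.9% had more 3p than 5p reads, and the knockdown libraries (33.3% and 34.3%) stayed within the range of the others. This share rests on another set of miRNAs in each library and does not show shifts that leave the dominant arm unchanged. In the fixed set of 11 described below, 7 had more 3p reads in both knockdown libraries, miR-532 included, and 5 or 6 in the others.

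Across all 89 miRNAs the difference of miR-532 between knockdown and 3NC was the third highest, behind miR-126 (8.24) and miR-21 (7.56). Both of these had an arm with 0 or 1 reads in each of the 3NC libraries, so their fitted size carries no weight. In this comparison 0 of 89 ratios passed the edgeR test (0%), 7 had an unadjusted p under 0.05 (7.87%), limma called 0, and 52.8% had groups that did not overlap, miR-532 among them. A narrower set of 11 miRNAs, chosen after the values were seen, had at least 3 reads of each arm in every library. Among these the difference of miR-532, 7.53, was the highest, followed by miR-129 at 5.99, and the lowest was let-7d at −3.82, with a median of 0.14. Between overexpression and 5NC the same 11 ran from −2.33 (miR-7) to 1.28 (miR-129), with miR-532 at −1.41 ± 1.71 (SE). Of the 11, edgeR called 1 between overexpression and 5NC (9.09%), miR-7, and 3 between knockdown and 3NC (27.3%). The latter count is a description alone, since the 11 hold miR-532, which was chosen on that comparison. Over all 8 libraries the log2 ratio of miR-532 spanned 9.56, the widest of the 11, and that of miR-129 7.57. For miR-532 the ends of this span were the second 3NC and the first knockdown library. They belong to the comparison the arms were chosen on, so the span is no separate result.

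**Figure D4:**
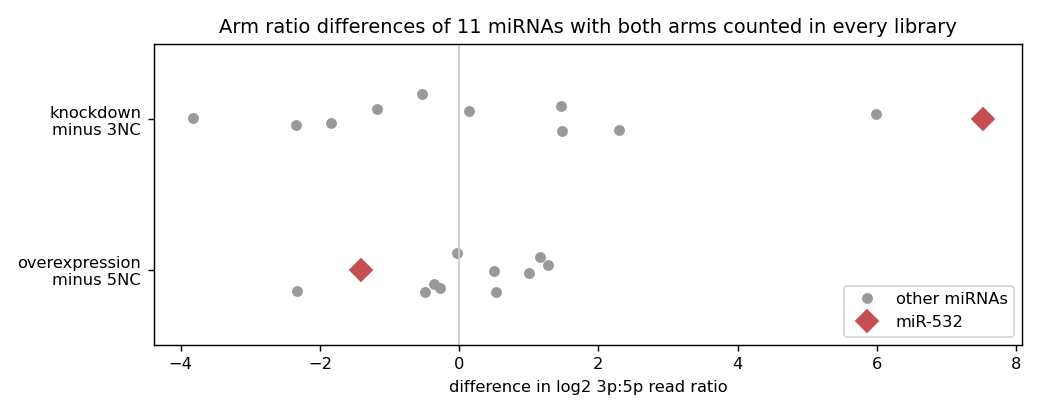
Difference in the fitted log2 3p:5p ratio (x axis) between knockdown and 3NC (upper row) and between overexpression and 5NC (lower row) for the 11 miRNAs with at least 3 reads of each arm in every library, with miR-532 as the red diamond and the others as grey points, spread vertically only for visibility. MiR-532 is at 7.53 in the upper row and at −1.41 in the lower row.

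The levels of the arms did not follow each other. Over the 8 libraries the Pearson correlation of log2(CPM + 1) between mature miR-532-3p and miR-532-5p was −0.57, and all correlations here are descriptions over libraries that differ in depth. Of the 223 other mature entries those most like miR-532-3p were miR-30b-5p (r = 0.88), miR-30c-5p (0.86), miR-223-3p (0.82), miR-582-5p (0.81) and miR-200b (0.81). Each of these was highest in the first knockdown library, as miR-532-3p was. MiR-30c-5p, for example, reached 166.9 and 146.2 CPM there and in the second knockdown library, while the other 6 libraries stayed at or under 52.9 CPM. MiR-582-5p reached no more than 10.9 CPM in the first knockdown library, where 1 read is 2.74 CPM. Those most like miR-532-5p were let-7a-3p (0.94), miR-23b-5p (0.94), miR-23a (0.92), miR-26b-3p (0.91) and miR-27b-5p (0.90). All of these except miR-23a had 0 reads in the second knockdown library. In the first knockdown library they stood at 2.74 to 16.4 CPM, where 1 read is 2.74 CPM, so their likeness rests on few reads there. MiR-23a was highest in the first overexpression library, at 17964 CPM, and lowest in the knockdown libraries, at 3626 and 2323 CPM, the same extremes as miR-532-5p. By the pattern of the arm ratio the nearest were miR-130b (0.91), miR-29c (0.90) and miR-21 (0.86), whose 3p arms had 0 to 5 reads in each library, so that their patterns follow the depth of the 5p arm.

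In the RefSeq goat assembly ARS1.2, whose relation to the build behind the deposited table is not given, MIR660, MIR500, MIR362, MIR502A and MIR502B lie within the CLCN5 gene on chromosome X. MIR532 and MIR188 are listed there on sequence without a chromosome. Beside miR-532, 8 names of the cluster list were found as 14 entries, of which 9 entries of 5 names passed the filter. None of the other entries had more than 836 reads in a library. Mature miR-660 had 127.0 and 140.7 CPM in 3NC, 0 and 88.7 CPM in 5NC, 307.1 and 80.1 CPM with overexpression, and 43.8 and 31.1 CPM with knockdown. Both knockdown libraries were below 3NC, as for miR-532-5p, while the 0 reads in the first 5NC library, where miR-532-5p had 6833, went apart from it. Mature miR-362-5p had 163.1 and 139.6 CPM in 3NC, 0.286 and 64.0 CPM in 5NC, 153.5 and 110.2 CPM with overexpression, and 0 and 31.1 CPM with knockdown, with the same low first 5NC library.

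Where miR-660 was counted, there were 6.50 to 21.0 mature miR-532-5p reads per miR-660 read, with the lowest value, from 65 and 10 reads, in the second knockdown library and 16.8 in the first. Mature miR-188-5p had at most 21 reads in a library, miR-500-3p at most 12 and miR-500-5p at most 5, so their changes were not detectable at this depth. The entries of miR-188-3p and miR-362-3p had 1 read in all 8 libraries together and those of miR-502b-5p 16 and 7. The Rfam families mir-188 and mir-500 had at most 8 and 44 reads and 0 in both knockdown libraries.

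**Figure D5:**
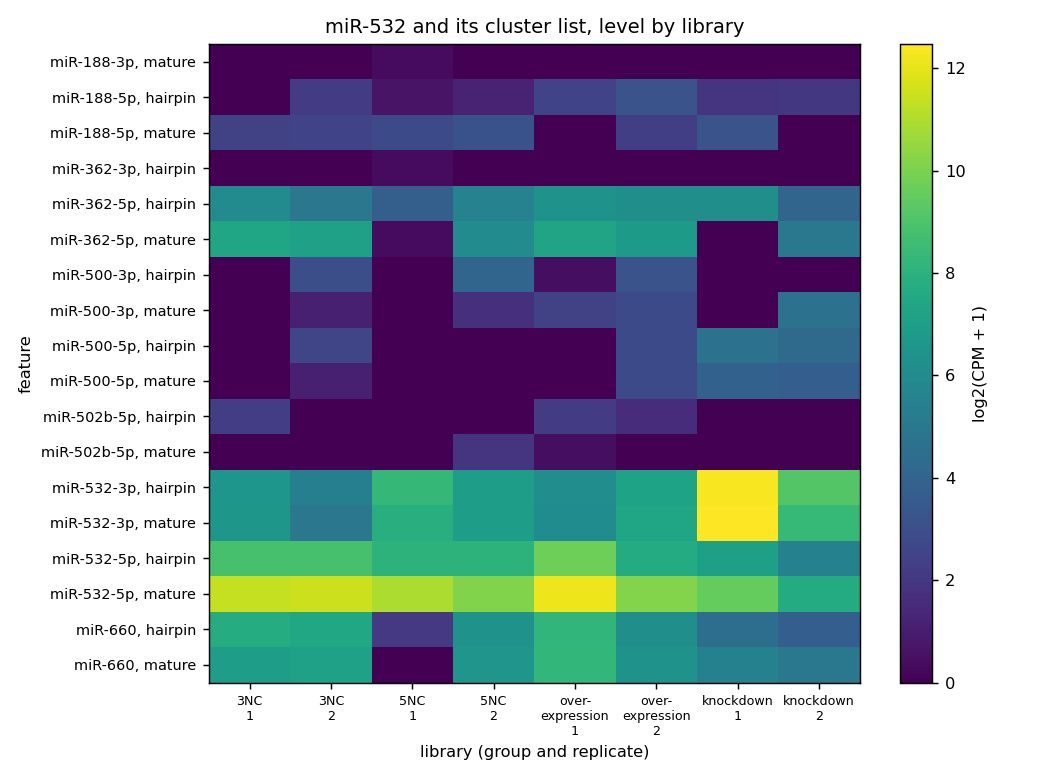
Level of each entry of miR-532 and of its cluster list (rows) in each library (columns) as log2(CPM + 1), by colour. The 5p entries of miR-532 and both miR-660 entries are darker in the knockdown libraries than in 3NC, while the 3p entries of miR-532 are brightest there.

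None of the 9 other cluster entries that passed the filter was past the edgeR test in overexpression against 5NC (0 higher, 0 lower, adjusted p = 0.59 to 0.94). Of these 7 had a log2 fold change above 0, with a median of 2.08, beside a median of 0.27 over all 604 entries. The groups did not overlap for 4 of the 9 on the higher and 1 on the lower side, beside 33.3% of all entries in either direction. That share is not split by direction, so it is no measure for either count alone. The 9 are mature and hairpin entries of 5 names and are not independent. The first 5NC library, with 0 and 1 reads of mature miR-660 and miR-362-5p, enters these values. In knockdown against 3NC, as a description, 6 of the 9 were below 0, with a median of −0.13 beside −0.08 over all entries. The miR-660 and miR-362-5p entries, the best counted of the 9, were all below 0: mature −1.84 and −3.29, hairpin −3.50 and −0.07. Those above 0 were the hairpin entries of miR-188-5p and miR-500-5p and mature miR-500-3p, with 27 to 30 reads over all 8 libraries. The groups did not overlap for 3 of the 9 on the lower and 1 on the higher side, beside 33.6% and 20.7% of all entries.

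Of the marker lists of other cell types, the endothelial and blood lists were higher in both knockdown libraries than in the controls, and the muscle list was not. The mature entries of miR-126, the endothelial marker, summed to 7312 and 8038 CPM with knockdown, while 3NC and 5NC held no more than 479.2 CPM. With knockdown the sum was miR-126-3p alone, since miR-126-5p had 0 reads in both of these libraries. The 4 blood markers found of 6 summed to 2800 and 3763 CPM with knockdown, to 676.5 and 581.3 CPM in 3NC and to 335.1 and 234.8 CPM in 5NC, and miR-144-3p had 0 reads in at least 1 library. The second overexpression library had 4888 CPM of miR-126 and 2742 CPM of blood markers, against 361.8 and 281.3 CPM in the first. The 4 muscle markers, all found, summed to 65.7 and 5367 CPM with knockdown, beside 68.4 and 828.1 CPM in 3NC, 17.4 and 470.9 CPM in 5NC and 104.3 and 795.2 CPM with overexpression, and miR-206 and miR-133b had 0 reads in at least 1 library. In the second overexpression library the 3p share of miR-532, 12.3%, was the highest outside knockdown and below the 61.8% of the second knockdown library. Its interval, 9.90% to 15.1%, held the shares of both 5NC libraries, 10.8% and 10.4%. In those miR-126 summed to 150.3 and 138.6 CPM. Whether the makeup of the libraries plays a part in the arm ratio of miR-532 was not tested.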

How the data were processed

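Small RNA reads were counted in 8 libraries of goat mammary gland cells. Per the file headers, the authors deposited raw read counts and TPM values of 5093 entries. The deposited TPM equalled the count per 1000000 reads of the column, with no length term, within 0.0141% for entries of at least 1000 reads, and 0 was written as 0.001. Aligner, build and treatment of multiply matching reads: not given in the sources used here. The 4 summed classes (exon, intron, intergenic, repeat), 44.3% to 63.1% of reads, stayed out of sizes and tests.

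The deposited counts of 1328 miRNA entries (317 mature, 347 hairpin, 664 predicted), each on its own, were fitted in R 4.3.3 with edgeR 4.0.16: 604 entries kept by filterByExpr at a count minimum of 10, TMM factors of 0.553 to 2.63, robust quasi-likelihood test over all 8 libraries with 4 residual degrees of freedom, two-sided, Benjamini-Hochberg over all entries, threshold 0.05. SE is the absolute log2 fold change divided by the square root of F. The biological coefficient of variation was 1.15. Arm ratios were fitted in edgeR on 3p and 5p reads as paired columns, with 1 term per library and 1 ratio term per group. Limma 3.58.1 and DESeq2 1.42.0 served as alternatives. In both comparisons, entries without a DESeq2 adjusted p were counted as not called, and shares are of all 604 entries. Shares have exact 95% binomial intervals (scipy 1.17.1), and a pseudocount of 1 was used for log2 CPM in correlations.

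The members, lists and tests were chosen with earlier results of these data known. Named miRNAs, beside miR-532, were the cluster list, the 5 mature entries nearest to each arm by correlation, the 3 nearest arm ratios, the 3 lowest p per direction for arm ratios with overexpression, and the neighbours by fold change with knockdown. MiR-129, miR-126, miR-21, let-7d and miR-7 were named after their values were seen. No sequences are printed, since none of the sources used here holds them.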

Additional observations from a re-analysis of the deposited data

How the results depend on the processing

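The 3p:5p difference of miR-532 between knockdown and 3NC kept its direction under all alternatives run (7.39 to 7.57, and 6.38 to 8.65 with a library left out). Its difference between overexpression and 5NC ran from −3.05 to 0.25 with a library left out, reversing without the first overexpression library. The log2 fold changes of the 5p arm in that comparison reversed there too, and ran from −0.40 to 1.47 (mature) and −0.38 to 1.49 (hairpin). With knockdown, mature miR-532-3p ran from 2.92 to 6.64 and its hairpin entry from 3.63 to 6.26 with a library left out. Mature miR-532-3p was 7.06 on plain miRNA totals and 4.20 on named small RNA totals (hairpin 6.95 and 3.99). Mature miR-532-5p was −0.96 on plain miRNA totals and −4.19 on named small RNA totals (hairpin −0.73 and −4.02). The causes were not tested beyond the scale itself.

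Counts past the test rose from 0 in places. For entries with overexpression they were 36 with DESeq2, 1 on named small RNA totals, 6 without a filter and 0 to 30 with a library left out (30 without the second 5NC, 2 without the second 3NC library), and with knockdown 28 with DESeq2. For arm ratios they were 3 with mature and hairpin counts summed, 3 with only the 2 groups, 2 with limma at a pseudocount of 5 and 3 with hairpin entries alone, all with knockdown. With a library left out they were 0 to 2 with knockdown (2 without either 5NC library) and 0 to 4 with overexpression (4 without the second 5NC library). They were 1 (overexpression) and 3 (knockdown) for the 11 miRNAs with both arms counted, a set that holds miR-532 and was chosen after the values were seen. Leaving out a library leaves 1 in its group, assumed to vary like the others. Same-numbered libraries are not stated to share anything, and the correlation of their deviations ran from −0.05 to 0.30 over 6 pairs of groups. With the replicate block the miR-532 ratio differences were 7.52 and −1.40, the log2 fold changes with overexpression −0.24 (mature 3p) and 0.71 (mature 5p), and 0 entries and 0 ratios passed. Depth limits the second knockdown library most, where 1 read is 3.11 CPM.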
